A study of Mus musculus with 6 samples.

Results

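The Reg genes encode small secreted C-type lectins that intestinal epithelial cells release into the lumen. The 5 genes described here, Reg1, Reg3a, Reg3b, Reg3g and Reg4, were chosen by symbol among 32285 genes, because earlier results of these data showed that their levels differed between cell classes and between the genotype labels. Those differences are therefore given as descriptions without a test. Small intestinal mucosa was profiled by single-cell RNA sequencing in 6 libraries, 1 per mouse. The 3 libraries labelled IE-HuR-/- came from HuR fl/fl mice carrying a villin-Cre transgene, which deletes Elavl1, the gene for the RNA-binding protein HuR, throughout the intestinal epithelium. The 3 control libraries came from HuR fl/fl littermates without Cre, labelled wild-type, so that an effect of the transgene itself and the deletion cannot be told apart. All mice were C57BL/6, aged 6 to 8 weeks, and per the study's methods went without food for 24 h before tissue collection.

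Reg3b and Reg3g bind bacterial cell walls and help to keep bacteria away from the epithelial surface, and their transcription is known to respond to microbial signals through MyD88 and to interleukin-22 through STAT3. Reg1 was first described as a secreted growth-associated protein of the pancreas and gut. Reg3a is a mouse paralog of the same group. Reg4 is a more distant member known from secretory cells of the gut.

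In GRCm38, 4 of the 5 genes lie within a 98.2 kb stretch of chromosome 6 that also holds Reg2 and Reg3d, and all were annotated as protein-coding with 6 exons. Reg3b (chr6:78370657-78373466, plus strand) lay at one end of the cluster and Reg3g (chr6:78466269-78468872, minus strand) at the other. Reg3a (chr6:78380709-78383827) and Reg1 (chr6:78422711-78428667) lay between them on the plus strand. Reg4 lay apart, at chr3:98222156-98236748 on the plus strand. The coding sequences of Reg3b and Reg3g were 76.0% identical, those of Reg3a and Reg3b 73.9%, and those of Reg3a and Reg3g 73.2%. Reg1 was 54.8% to 60.0% identical to the other members, and the longest identical run between any 2 members' transcripts was 35 bases, in Reg3b and Reg3g. How the counting treated reads that could match more than 1 member was not tested.

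The start regions of the 5 genes are shown because the genes with the largest opposite label differences share a chromosomal neighbourhood. Each line gives the bases from 45 to 16 before the RefSeq start site (GRCm38.p6), 5′ to 3′ on the gene's strand, with TATAAA in capitals. For Reg3b and Reg1 that start site and its window lie inside the gene span given above, which begins further upstream.
Reg3b, chr6:78370840-78370869, plus strand: ctccctcaaattctgtTATAAAaacacagt
Reg3g, chr6:78468890-78468919, minus strand: ccctccctcaagtcctacTATAAAaacagt
Reg1, chr6:78425938-78425967, plus strand: ttcagccctgatgtaTATAAAaggcctacc
Reg3a, chr6:78380664-78380693, plus strand: agctatcacccagacttaaataagcattca
Reg4, chr3:98222111-98222140, plus strand: ttgagacaagaaggtataagagctgcagga
TATAAA was found in 3 of the 5 members within the promoter entry (250 bases before to 50 after the start, both strands), and in 13.6% of all 32851 promoter entries. Reg3b and Reg3g, which were higher under the IE-HuR-/- label, and Reg1, which was lower, all held it.

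A second element, TTCAAAC, chosen after the sequences had been read, was present in the promoter entries of Reg3b, Reg3g and Reg3a and in 3.90% of all entries, both strands counted. It is shown in capitals in the following windows.
Reg3b, chr6:78370654-78370681, plus strand: ggTTCAAACttcactcacacctgaggta
Reg3g, chr6:78469077-78469104, minus strand: agTTCAAACtgcacccatacctgacaat
Reg3a, chr6:78380526-78380553, plus strand: atTTCAAACatcactggcacctgaacac
The spaced palindrome TTCNNNGAA, the core letters of a STAT-type motif, was found among the members in Reg3b alone and in 8.30% of all entries, both strands counted. Its window also lies inside the Reg3b gene span given above.
Reg3b, chr6:78370746-78370774, plus strand: agcctgttctTTCTTGGAAactctttgag
The motifs were not particular to the members: Reg3d of the same cluster also held TTCAAAC and TTCNNNGAA, and Reg2 held TATAAA. These matches describe letters in the window. Whether a factor binds there was not tested.

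The 6 libraries held 60706 cell barcodes, of which 435 barcode sequences occurred in more than 1 library. Total counts of unique molecular identifiers (UMIs, 1 per captured RNA molecule) were 66396951 to 91818560 in control and 59518012 to 65925616 in IE-HuR-/- libraries. Cells were assigned to classes by marker genes that included no Reg gene, which gave 16995 enterocyte-gated, 1195 goblet-gated, 250 enteroendocrine-gated, 147 tuft-gated, 112 progenitor-gated and 45 Paneth-gated cells. The T/NK gate (T cells and natural killer cells, 5058 cells) should lack Reg RNA and served as the background, since free RNA in a droplet is counted with the cell. Levels are given as CPM, the UMIs of a gene per 1000000 UMIs of the class sum. Elavl1 RNA was not lower under the IE-HuR-/- label in enterocyte-gated cells, with 28.1 to 30.4 CPM in control and 29.3 to 30.7 CPM in IE-HuR-/- libraries (log2 difference 0.04 unscaled and 0.23 with edgeR's scaling). In goblet-gated cells it was 27.7 to 28.9 CPM in control and 20.9, 26.4 and 28.7 CPM in IE-HuR-/- libraries, which overlapped. The study showed the loss as HuR protein, by immunostaining, which counts of Elavl1 RNA do not measure. The direction below is therefore that of the labels, and libraries are called by their label throughout.

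Enterocyte-gated cells, the absorptive cells of the villus, held most of the Reg1, Reg3a, Reg3b and Reg3g UMIs, and enteroendocrine-gated cells, the hormone-secreting cells, held most of the Reg4 UMIs. Of all Reg3b UMIs in a library, 86.2% ± 0.462 (SD, n = 3) of those in control and 79.8% ± 2.31 (n = 3) of those in IE-HuR-/- libraries were in enterocyte-gated cells. For Reg3g the shares were 84.1% ± 1.10 and 74.9% ± 3.01. Goblet-gated cells, the mucus-secreting cells, held 5.65% ± 2.34 of Reg3g UMIs in control and 9.74% ± 1.28 in IE-HuR-/- libraries. Barcodes that passed no gate held more, at 8.36% ± 3.29 and 13.6% ± 1.99 of Reg3g UMIs, and 7.89% ± 2.57 and 13.1% ± 2.00 of Reg3b UMIs. Enteroendocrine-gated cells held 87.2% ± 5.42 of Reg4 UMIs in control and 84.0% ± 6.17 in IE-HuR-/- libraries. These shares depend on how many cells of each class a library held as well as on the level per cell.

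**Figure D1:**
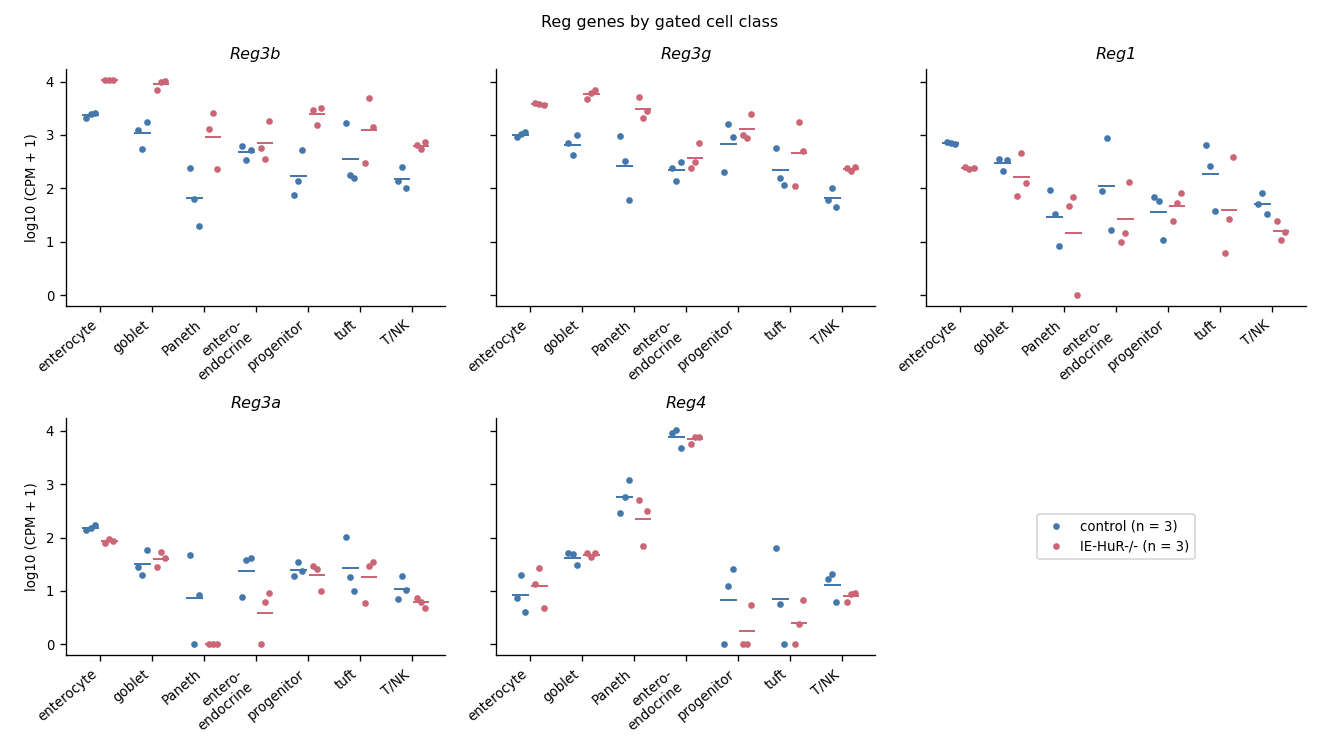
Level of each Reg gene by gated cell class, as log10 (CPM + 1) on the vertical axis, with 1 point per library and a line at the mean of the log values. Reg3b and Reg3g are higher in all 3 IE-HuR-/- libraries in enterocyte- and goblet-gated cells and also in the T/NK background, and Reg4 is highest in enteroendocrine-gated cells.

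Reg3b, an antibacterial lectin of the absorptive and secretory epithelium, was higher under the IE-HuR-/- label. In enterocyte-gated cells its level was 2122, 2421 and 2607 CPM in the 3 control libraries and 10481, 10887 and 10472 CPM in the 3 IE-HuR-/- libraries. The labels did not overlap, and the edgeR log2 fold change was 2.34 (SE 0.064). In goblet-gated cells it was 1255, 548 and 1753 CPM against 6992, 9808 and 10070 CPM. The goblet-gated control libraries varied over a wider range than the enterocyte-gated ones, and the labels again did not overlap. In the T/NK background Reg3b was 138, 246 and 102 CPM in control and 635, 534 and 724 CPM in IE-HuR-/- libraries, so the background itself was higher under the IE-HuR-/- label. With the T/NK level subtracted, the mean in enterocyte-gated cells was 2221 CPM in control and 9982 CPM in IE-HuR-/- libraries. In goblet-gated cells the subtracted means were 1023 CPM and 8326 CPM.

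Reg3g, the closest relative of Reg3b by sequence, had the same direction. Its level in enterocyte-gated cells was 912, 1025 and 1132 CPM in control and 3905, 3754 and 3694 CPM in IE-HuR-/- libraries, a log2 fold change of 2.08 (SE 0.068). In goblet-gated cells it was 694, 417 and 992 CPM against 4667, 6055 and 7020 CPM, a log2 fold change of 3.28 (SE 0.39). Neither class showed overlap between the labels. Under the IE-HuR-/- label every library had more Reg3g in goblet-gated than in enterocyte-gated cells, whereas in control every library had less. The difference between the 2 classes' label effects was not tested. The T/NK background of Reg3g was 58.4, 102 and 44.0 CPM in control and 237, 207 and 245 CPM in IE-HuR-/- libraries.

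Reg1 went the other way in enterocyte-gated cells. It was 739, 719 and 673 CPM in control and 246, 228 and 236 CPM in IE-HuR-/- libraries, a log2 fold change of -1.40 (SE 0.046) with no overlap. In goblet-gated cells Reg1 was 356, 207 and 338 CPM in control and 71.4, 465 and 123 CPM in IE-HuR-/- libraries, which overlapped. Library 2 of the IE-HuR-/- label was the high one, and without it the goblet-gated log2 fold change was -1.42 and the labels did not overlap. With a stricter gate, in which the minimum share of marker UMIs was doubled and the minimum number of markers kept, the log2 fold change was -3.25, also without overlap. The T/NK background of Reg1 was also lower under the IE-HuR-/- label, at 49.3, 82.7 and 32.5 CPM against 23.9, 9.58 and 14.4 CPM.

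Reg3a was also lower under the IE-HuR-/- label in enterocyte-gated cells, by a smaller log2 fold change than Reg1. It was 140, 149 and 171 CPM in control and 76.9, 91.2 and 85.5 CPM in IE-HuR-/- libraries, a log2 fold change of -0.66 (SE 0.098) with no overlap. In goblet-gated cells Reg3a was 27.2, 19.0 and 58.3 CPM against 26.6, 53.4 and 40.8 CPM, which overlapped.

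In enterocyte-gated cells, then, 2 of the 5 members were higher and 2 were lower under the IE-HuR-/- label with no overlap between the labels. Of all 12599 genes tested in that class, 31.4% were higher and 32.3% were lower without overlap, and the members were chosen on this contrast, so nothing is read from the count. In goblet-gated cells 2 members were higher without overlap, beside 21.1% of 9079 genes higher and 20.3% lower. By size, 93 of the 12599 genes had a higher log2 fold change than Reg3b in enterocyte-gated cells, 117 a higher one than Reg3g, 276 a lower one than Reg1 and 1333 a lower one than Reg3a.

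Reg4 was restricted to few cells. In enteroendocrine-gated cells it was 9185, 10165 and 4775 CPM in control and 5715, 7482 and 7653 CPM in IE-HuR-/- libraries. The labels overlapped, with a log2 fold change of -0.17 (SE 0.27). Within that class, cells with at least 5 UMIs of Tph1, the enzyme that starts serotonin synthesis in enterochromaffin cells, held most Reg4: 17827, 28147 and 11223 CPM in control and 8503, 15226 and 14782 CPM in IE-HuR-/- libraries. The remaining enteroendocrine-gated cells held between 2.38 and 1181 CPM, so every library had more Reg4 in its Tph1 cells. Paneth-gated cells held 282, 579 and 1205 CPM in control and 494, 68.1 and 312 CPM in IE-HuR-/- libraries, from 5 to 11 cells per library. Goblet-gated cells held 29.2 to 50.4 CPM in control and 41.7 to 50.0 CPM in IE-HuR-/- libraries, above the T/NK background of 5.11 to 20.1 CPM. In enterocyte-gated cells Reg4, at 2.97 to 26.5 CPM over both labels, spanned the range of that background.

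The rarer classes rested on few cells and varied more. In Paneth-gated cells, which secrete antimicrobial proteins at the crypt base, Reg3g was 940, 321 and 59.9 CPM in control and 5118, 2044 and 2822 CPM in IE-HuR-/- libraries. Reg3b in the same cells was 235, 63.0 and 18.7 CPM against 1302, 2590 and 227 CPM. These cells were shallow, with medians of 711 to 1315 UMIs per cell, and the class sums ran from 14674 to 267286 UMIs. Reg3b rested on 5, 10 and 5 UMIs in control and 29, 38 and 16 in IE-HuR-/- libraries. It lay below the T/NK level of the same library in control libraries 2 and 3 and IE-HuR-/- library 3. On this unscaled scale Reg3g did not overlap and Reg3b did, also with the T/NK level subtracted. On the scaled values neither overlapped, but the scaling factors of this class ran from 0.54 to 2.63. In progenitor-gated cells, the dividing cells of the crypt, Reg3b was 73.8, 135 and 514 CPM in control and 2933, 1513 and 3220 CPM in IE-HuR-/- libraries, without overlap. Reg3g in progenitor-gated cells was 198 to 1587 CPM in control and 881 to 2446 CPM in IE-HuR-/- libraries, which overlapped, as did Reg1 and Reg3a. Reg3b there rested on 16, 24 and 205 UMIs in control and 1019, 426 and 728 in IE-HuR-/- libraries. This class held 10 to 14 cells per control library and 22 to 32 per IE-HuR-/- library. Progenitor-gated cells had median UMIs of 6272 to 17464 in control and 3638 to 6551 in IE-HuR-/- libraries. Barcodes that passed no gate, with medians of 757 to 1250 UMIs, held 681 to 1211 CPM of Reg3b in control and 6245 to 8166 CPM in IE-HuR-/- libraries, above the Paneth- and progenitor-gated levels of the same label. The ungated barcodes can include enterocytes with fewer than the 2000 UMIs of that gate, so they do not measure free RNA alone. With the T/NK level subtracted, progenitor-gated Reg3b had means of 137 CPM in control and 1924 CPM in IE-HuR-/- libraries, without overlap. The part of depth and free RNA in the Paneth- and progenitor-gated levels was not tested. Among genes tested, 11.5% in Paneth-gated and 6.04% in progenitor-gated cells were higher without overlap. In enteroendocrine-gated cells Reg3b was 344 to 634 CPM in control and 566, 350 and 1838 CPM in IE-HuR-/- libraries, which overlapped. The T/NK background under that label was 534 to 724 CPM. Libraries 1 and 2 of the IE-HuR-/- label lay below their own T/NK level, and library 3 lay above it.

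The order of the classes was gene-specific. In control libraries Reg3a was higher in enterocyte-gated than in goblet-gated cells without overlap, and so were Reg1 and Reg3b. Reg3g in control was 912 to 1132 CPM in enterocyte-gated and 417 to 992 CPM in goblet-gated cells, which overlapped. Under the IE-HuR-/- label Reg3b in goblet-gated cells lay below enterocyte-gated cells, and Reg3g lay above them. The ranges of the Paneth-, enteroendocrine-, progenitor- and tuft-gated cells overlapped one another for Reg1 within each label. For Reg3b they did so under the IE-HuR-/- label, while in control Paneth-gated cells lay below enteroendocrine-gated cells. Reg4 followed another order, with enteroendocrine-gated cells highest, then Paneth-gated cells and then goblet-gated cells in both labels. No library of one of these 3 classes overlapped the next, but the lowest Paneth-gated library, at 68.1 CPM, rested on 1 Reg4 UMI in 11 cells, so the order of Paneth- and goblet-gated cells is uncertain under the IE-HuR-/- label.

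Shares of cells with a UMI were compared after each cell was thinned at random to 2000 UMIs, with shallower cells left out. In enterocyte-gated cells a Reg3b UMI was found in 39.4% to 48.1% of cells in control and 83.9% to 86.1% in IE-HuR-/- libraries. In T/NK-gated cells the shares were 15.1% to 34.8% and 64.6% to 69.8%, so most cells of a class that should lack Reg3b had a UMI of it under the IE-HuR-/- label. At 10 or more UMIs the shares in enterocyte-gated cells were 5.86% to 7.72% in control and 24.5% to 26.6% in IE-HuR-/- libraries, against at most 0.575% in any T/NK-gated library. Reg3g at 10 or more UMIs was found in 2.64% to 3.69% of enterocyte-gated cells in control and 13.0% to 14.4% in IE-HuR-/- libraries. Goblet-gated cells with 10 or more Reg3g UMIs made up 1.18% to 3.68% and 22.4% to 28.3%. More cells carried high counts of both genes under the IE-HuR-/- label in both classes. Reg1 at 10 or more UMIs was found in 1.72% to 1.90% of enterocyte-gated cells in control and 0.830% to 1.02% in IE-HuR-/- libraries. No cell reached 10 Reg3a UMIs.

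**Figure D2:**
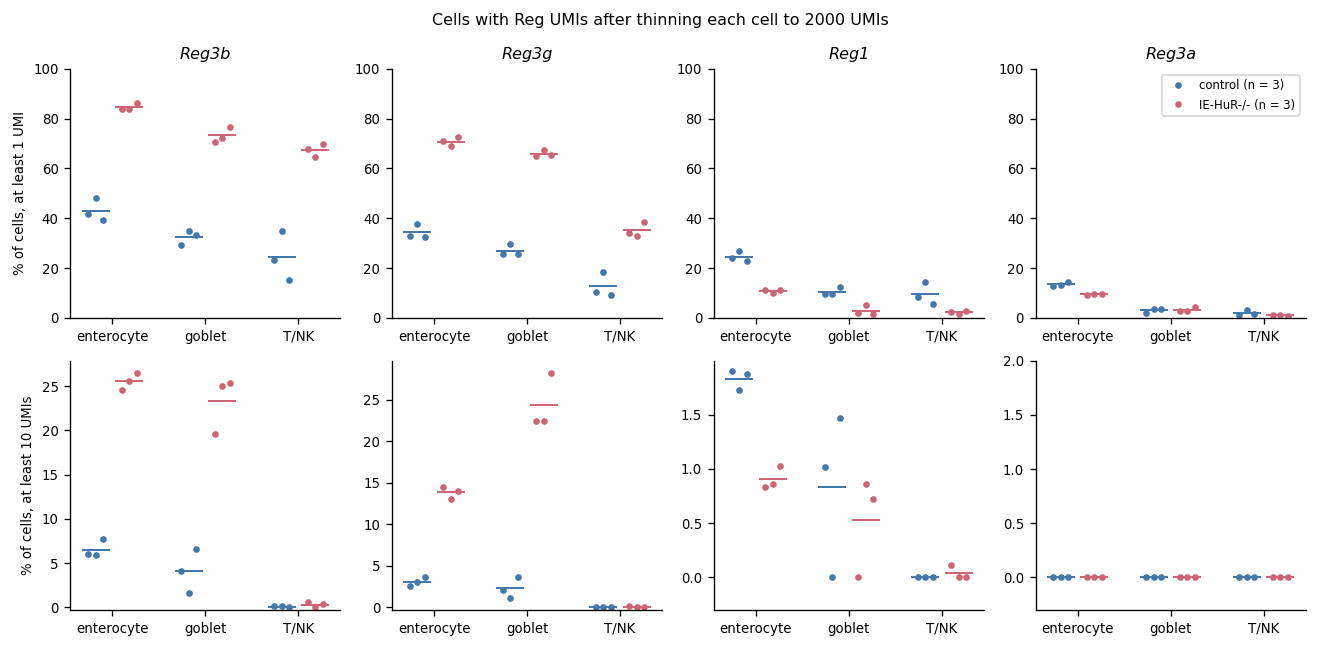
Percent of cells with at least 1 UMI (upper row) and at least 10 UMIs (lower row) of each gene after thinning to 2000 UMIs per cell, in enterocyte-, goblet- and T/NK-gated cells, with 1 point per library and a line at the mean. For Reg3b the T/NK background reaches 69.8% of cells at 1 UMI and stays at or under 0.575% at 10 UMIs.

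The counts were uneven between cells. The tenth of enterocyte-gated cells with the most Reg3b UMIs held 76.3% to 82.1% of them in control and 63.0% to 66.3% in IE-HuR-/- libraries. After thinning, the median enterocyte-gated cell had 0 Reg3b UMIs in control and 3 in IE-HuR-/- libraries. Across enterocyte-gated cells of a library, Reg3b and Reg3g had a Spearman correlation of 0.46 to 0.51 in control and 0.65 to 0.69 in IE-HuR-/- libraries. These cells share a library and its free RNA, and the correlation describes them only. Reg1 and Reg3g were at 0.039 to 0.072 and 0.098 to 0.13.

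Villus position was read from 8 tip genes, including Ada, Nt5e and Slc28a2, and the enterocyte-gated cells of each library were cut into 5 bins of equal size. Apoa4, a lipoprotein gene known to rise towards the tip, served as a check and rose from 8037 ± 334 CPM (SD, n = 3) in the lowest bin to 31354 ± 2777 CPM in the highest in control. In IE-HuR-/- libraries it rose from 5231 ± 380 to 29045 ± 1157 CPM. It was lower under that label without overlap in every bin but the highest. Alpi, an enterocyte marker, was lower without overlap in all 5 bins. The check thus holds for the order within a label, and not for equal positions between labels. Reg3b went from 6239 ± 321 CPM in the lowest to 270 ± 43.4 CPM in the highest bin in control, and from 22834 ± 1160 CPM to 1393 ± 127 CPM in IE-HuR-/- libraries. Reg3g went from 2188 ± 232 to 312 ± 15.2 CPM in control and from 6255 ± 453 to 1016 ± 144 CPM in IE-HuR-/- libraries. Reg3b and Reg3g were both lowest in the tip bin in all 6 libraries. Reg1 went from 1761 ± 231 to 204 ± 75.9 CPM in control and from 802 ± 76.9 to 20.4 ± 3.36 CPM in IE-HuR-/- libraries. Reg3a went from 457 ± 5.03 to 4.39 ± 1.34 CPM in control and from 251 ± 24.8 to 3.72 ± 0.565 CPM in IE-HuR-/- libraries. Its values in the highest bin were at or below the T/NK background, so that the size of the fall is not read. Reg4 had no common direction over the libraries.

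**Figure D3:**
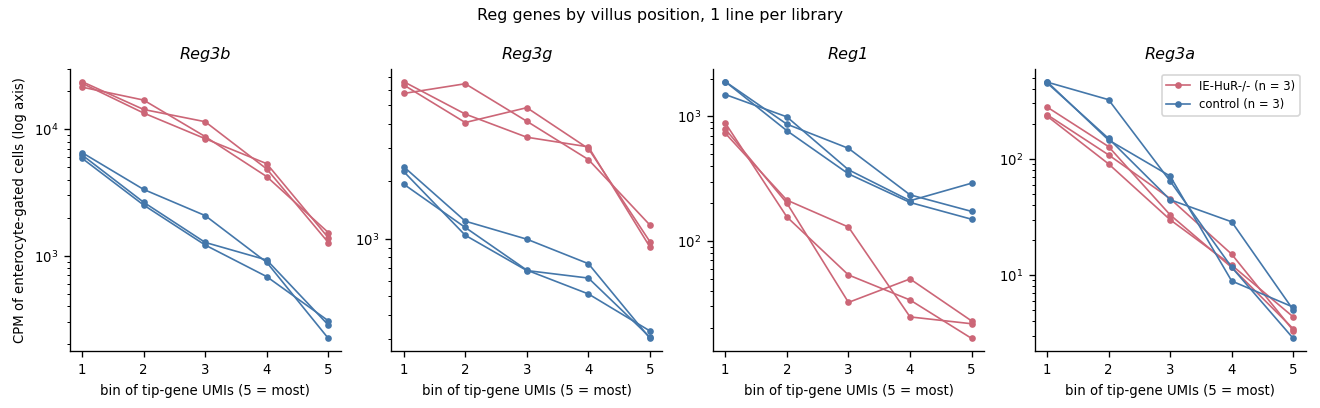
Level of 4 Reg genes in 5 bins of enterocyte-gated cells ordered by tip-gene UMIs, with CPM on a log axis and 1 line per library. All 4 genes are lowest in bin 5 in every IE-HuR-/- library, and the IE-HuR-/- lines lie above the control lines for Reg3b and Reg3g and below them for Reg1 in every bin.

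The label ratio was also taken within each bin, and a difference between bins was not tested. The ratio of mean Reg3b levels, IE-HuR-/- over control, was 3.66 in the lowest bin and 6.28 in the middle bin, with no overlap in any of the 5 bins. In the highest bin control Reg3b, at 270 CPM, was near its T/NK background of 102 to 246 CPM. For Reg1 the control mean was 2.20 times the IE-HuR-/- mean in the lowest bin and 5.91 times in the middle bin. In the highest bin the IE-HuR-/- level of 20.4 CPM lay within its T/NK background of 9.58 to 23.9 CPM, so no ratio is given there. Reg3a was lower without overlap in the 2 lowest bins and overlapped in the 3 others. Cells of the same bin did not have the same tip-gene content under both labels: the middle bin had 7.98 ± 0.257 tip-gene UMIs per 2000 UMIs in control and 12.1 ± 0.714 in IE-HuR-/- libraries.

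The same cells were therefore also divided at fixed numbers of tip-gene UMIs, a choice made after seeing that difference. Reg3b and Reg3g were higher without overlap in all 5 fixed classes, and Reg1 was lower in all 5. Reg3a was lower without overlap in the class with the fewest tip-gene UMIs, at 526 ± 12.1 CPM in control and 319 ± 11.3 CPM in IE-HuR-/- libraries, and overlapped in the next 3. In those 3 the control and IE-HuR-/- means were 242 and 191 CPM, then 69.7 and 82.2 CPM, then 17.9 and 23.8 CPM. The direction of the Reg3a means thus changed along the classes. In the class with 21 or more tip-gene UMIs Reg3a was 4.47 ± 1.18 CPM in control and 6.62 ± 0.436 CPM in IE-HuR-/- libraries. The T/NK background of Reg3a was 5.98 to 17.9 CPM in control and 3.79 to 6.50 CPM in IE-HuR-/- libraries, so both values lay at about the background and no direction is read from them. That class held 496 to 952 cells in control and 793 to 845 cells in IE-HuR-/- libraries, and the class with the fewest held 307 to 521 and 175 to 190. A changed level of the tip genes and a changed mix of positions cannot be told apart here.

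**Figure D4:**
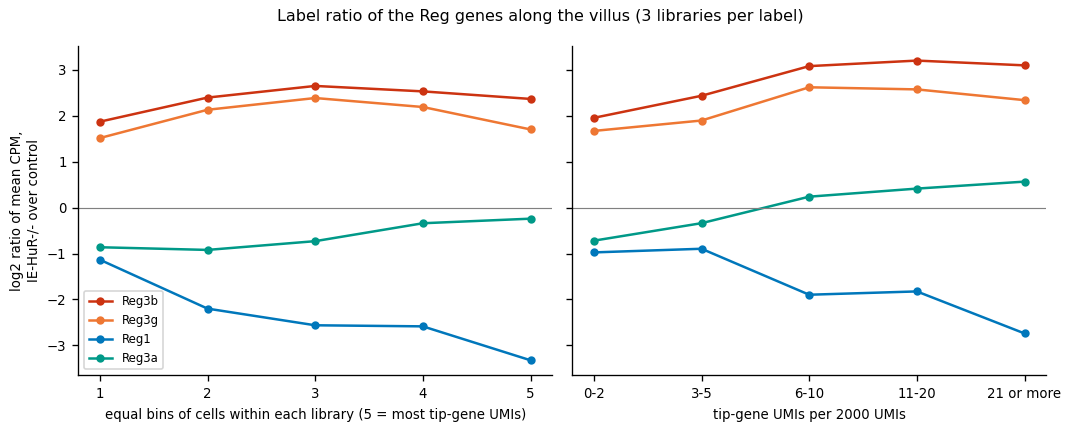
Log2 ratio of mean CPM, IE-HuR-/- over control, for 4 Reg genes along the villus, with bins of equal size within each library (left) and classes of fixed tip-gene UMIs per 2000 UMIs (right). Reg3b and Reg3g lie above 0 and Reg1 below 0 throughout, and the Reg3a values of the highest class, 4.47 and 6.62 CPM, lie at about the T/NK background. The IE-HuR-/- level of Reg1 in the highest bin of equal size, 20.4 CPM, and the Reg3a levels there also lie at or below the T/NK background or within its range.

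Genes whose levels over 30 library-by-class sums were most like each member are named as a description (Pearson r of log2(CPM + 1), 5175 genes compared). For Reg3g they were Reg3b (0.77), Saa1 (0.73) and Mt1 (0.62). For Reg3b they were Dstn (0.85), Fabp2 (0.84) and Duox2 (0.83), and for Reg1 Cat (0.85), 4931406C07Rik (0.83) and B2m (0.83). For Reg3a they were Pim1 (0.87), Aamdc (0.86) and Cept1 (0.86), and for Reg4 Mgll (0.83), Gnao1 (0.81) and Insm1 (0.81). The sums share libraries and cell classes. The other mouse family genes were nearly absent, with Reg3d at 0.114 to 0.522 CPM in enterocyte-gated cells and Reg2 at or under 0.0909 CPM.

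The pathway known to control Reg3b and Reg3g was then described with a list of receptors, signalling genes and other induced genes that held no Reg gene. The list was chosen with earlier results of these data known. Its counts and p-values therefore describe the listed genes and are no independent support for the pathway. In enterocyte-gated cells 23 of 36 tested pathway genes were higher and 3 were lower (edgeR quasi-likelihood test, Benjamini-Hochberg adjusted over all genes), beside 29.5% and 29.1% of all genes. Without scaling beyond library totals the same list gave 16 higher and 9 lower, beside 1897 higher and 6167 lower of all 12599 genes. The median log2 fold change of all genes then moved to -0.20. With the scaling kept, 13 of 19 induced genes were higher and 2 were lower, with a median log2 fold change of 0.79 against -0.01 for all genes tested. In goblet-gated cells 15 of 33 pathway genes were higher and 1 was lower, beside 15.0% and 12.3% of all genes.

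The named pathway genes are given on the scaled CPM of edgeR. Saa1, an acute-phase protein, was 3.76, 2.31 and 5.73 CPM in control and 273, 318 and 219 CPM in IE-HuR-/- libraries in enterocyte-gated cells, a rise of 6.15 on the log2 scale (edgeR adjusted p = 0.000131). Duox2, which makes hydrogen peroxide at the epithelial surface, was 53.1 to 57.8 CPM in control and 390 to 426 CPM in IE-HuR-/- libraries (log2 fold change 2.85, edgeR adjusted p = 2.59e-28). Duoxa2, its maturation factor, rose by 2.83 on the log2 scale (edgeR adjusted p = 4.67e-27). None of these ranges overlapped. Muc4, a membrane mucin, rose by 3.86 on the log2 scale (edgeR adjusted p = 2.42e-28), Slc6a14, an amino acid transporter, by 4.56 (edgeR adjusted p = 0.00045) and Dmbt1, a bacteria-binding glycoprotein, by 2.55 (edgeR adjusted p = 0.000837). Fut2, which fucosylates surface glycans, rose from 0.610 ± 0.217 to 6.28 ± 0.762 CPM (edgeR adjusted p = 7.41e-12). Saa2 rose from 0.0693 ± 0.0479 to 2.61 ± 1.09 CPM (edgeR adjusted p = 5.54e-05) and Ceacam10 from 0.397 ± 0.107 to 1.72 ± 0.110 CPM (edgeR adjusted p = 2.20e-09).

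**Figure D5:**
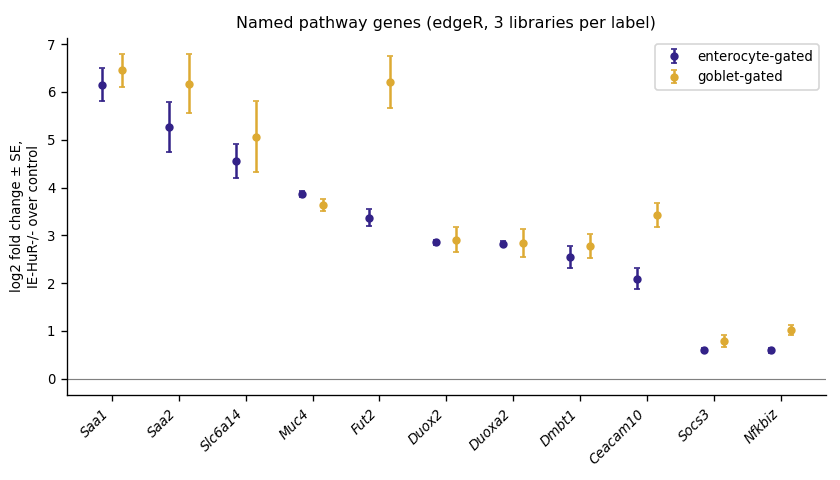
Log2 fold change with its SE (edgeR, 3 libraries per label) of the named pathway genes in enterocyte-gated and goblet-gated cells, IE-HuR-/- over control. All lie above 0, and Fut2, Saa2 and Slc6a14 in goblet-gated cells have control libraries at 0, so that their fitted values depend on the prior count.

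Signalling genes moved less. Socs3, the feedback inhibitor that STAT3 induces, rose by 0.60 on the log2 scale in enterocyte-gated cells (edgeR adjusted p = 2.24e-12), and Stat3 itself by 0.33 (edgeR adjusted p = 9.10e-08). Without scaling the median of all genes in that class was -0.20, so the size of small values such as that of Stat3 depends on the scaling. In goblet-gated cells Stat3 had a log2 value of 0.24 and was not called (edgeR adjusted p = 0.0774). Nlrp6, an inflammasome receptor, fell in enterocyte-gated cells, with a log2 value of -0.32 (edgeR adjusted p = 3.50e-06) and in goblet-gated cells with -0.59 (edgeR adjusted p = 0.00824). On unscaled CPM Nlrp6 went from 137 ± 11.3 in the lowest villus bin to 4.17 ± 0.871 in the highest in control. It was not taken at fixed numbers of tip-gene UMIs. A changed level and a changed mix of positions therefore cannot be told apart for Nlrp6 in enterocyte-gated cells. The other pathway genes named in that class were not taken at fixed numbers either, so the same limit holds for their rises. On unscaled CPM Saa1 was higher without overlap in all 5 bins of equal size. In the lowest bin its means were 3.63 in control and 93.5 in IE-HuR-/- libraries. Il22ra1, the specific subunit of the interleukin-22 receptor, was 10.3 to 12.2 CPM in control and 9.10 to 11.1 CPM in IE-HuR-/- libraries and did not pass the test (edgeR adjusted p = 0.149). In goblet-gated cells Saa1 was 4.58 to 13.8 CPM in control and 635 to 893 CPM in IE-HuR-/- libraries (edgeR adjusted p = 5.56e-05), Muc4 rose by 3.63 on the log2 scale (edgeR adjusted p = 1.31e-14) and Nfkbiz by 1.02 (edgeR adjusted p = 9.99e-07). Saa1, Duox2, Duoxa2 and Muc4 were also called higher in the T/NK background, where 1.40% of all genes tested were (edgeR, same threshold). Il22, Il17a and Il23r had 0 UMIs in T/NK-gated cells of all 6 libraries, which allows a level of up to 0.112 CPM over the class with both labels pooled. The bound for 1 label alone is higher. The study prepared the suspension for epithelial cells and checked its purity, so how fully immune cells were sampled is not known.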

How the data were processed

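Single-cell suspensions of small intestinal mucosa were sequenced on the 10x Genomics platform, and the deposited tables hold unnormalized UMI counts (genes by barcodes), made by the authors with Cell Ranger (6.1.2 per the file headers) and mm10 per the labels. A barcode needed at least 200 genes to enter. Classes were gated on the share of a cell's UMIs in marker genes and on the number of markers detected. Enterocyte-gated cells also needed 2000 UMIs. Cells that passed more than 1 gate (27) were left out as possible doublets, and no doublet caller was run. In all, 34738 of 60431 cells passed no gate. UMIs were summed per library and class, and edgeR 4.0.16 (TMM, quasi-likelihood, robust, filterByExpr with a minimum count of 10, R 4.3.3) was fitted on all genes with 3 libraries per label. A gene was called at an adjusted p under 0.05. Levels are CPM of the class sum unless called scaled. In simulated data with known changes the fit was tested. Counting error is the only error a thinned share covers. The p-values rest on the spread between 3 mice per label, which edgeR pulls towards a trend over all genes tested. Very small p-values thus depend on that pooling and not on the 3 mice per label alone. Members and lists were chosen with earlier results of these data known. Named pathway genes were the 10 largest changes per class that were called and did not overlap. DESeq2 1.42.0, other gates and other scalings were tried. Gene models came from GENCODE M21 and promoters from RefSeq, where all 5 members matched.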

Additional observations from a re-analysis of the deposited data

How the results depend on the processing

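The label direction of Reg3b, Reg3g, Reg1 and Reg3a in the sums over all enterocyte-gated cells held under every alternative fit. Within the fixed classes of tip-gene UMIs the Reg3a means did not keep that direction. The named pathway genes kept their direction and their call in all 280 refits, which their choice as the largest called changes favoured. In goblet-gated cells the number of members without overlap was 2 to 4 when 1 library was left out. Without the IE-HuR-/- library 2 it was 4. Labels overlap less readily with a library left out, and the share of all genes without overlap was not taken in these refits. Nothing is therefore read from this count. With a stricter gate the log2 of the Reg1 level in enterocyte- over goblet-gated cells became 3.34. The same measure for Reg3g averages over both labels, which went opposite ways, so its mean near 0 decides nothing: it was -0.0044 in cells of at least 2000 UMIs and -0.26 to 0.19 when 1 library was left out. For Reg4, subtracting the T/NK level gave a log2 of 7.75 in enteroendocrine- over goblet-gated cells. Along the villus, the log2 of the highest over the lowest bin was -5.15 for Reg3a with 3 tip genes alone and -5.22 with 3 bins. As with 5 bins, the size of the Reg3a fall is not read. The same log2 was -4.80 for Reg3b and -3.25 for Reg3g relative to ribosomal protein genes, and -3.24 and -1.95 with 3 bins. Reg4 had no stable direction, at 1.42 with 3 tip genes alone, 0.057 relative to ribosomal protein genes and 0.64 in fixed classes, and -0.72 to 0.41 when 1 library was left out. The replicate block gave 28 pathway genes called in enterocyte-gated cells, against 26 without it, and 16 in goblet-gated cells both ways. Deviations of same-numbered libraries from their label's mean had correlations of -0.10 to 0.09, and those of differently numbered ones -0.15 to 0.18. With 3 libraries per label these values cannot decide whether same-numbered libraries shared a litter or a batch. Few Paneth-gated and progenitor-gated cells limited those classes, and at least 500 genes per cell left a library with no Paneth-gated cell, so that alternative was not run there. The cause of these changes was not tested.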
